A study of Homo sapiens with 6 samples.

Results

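The 10 genes described here encode enzymes of glycolysis: HK2, GPI, PFKP, ALDOA, TPI1, GAPDH, PGK1, ENO1, PKM and LDHA. They were chosen by name, and every probe set that the platform annotation ties to 1 of them alone was taken. That gave 34 of the 44994 single-gene probe sets, and 10 of the 18132 genes, in the deposited table. PGK1 has 9 probe sets, PKM 6, GAPDH and LDHA 4 each, TPI1 3, HK2, ALDOA and ENO1 2 each, and GPI and PFKP 1 each. Total RNA of HCT116, a human colorectal carcinoma cell line, had been read on Affymetrix arrays after biotin labelling. Of the 6 arrays, 3 come from cells labelled CSF3 and 3 from cells labelled control (Ctrl). CSF3 is granulocyte colony-stimulating factor, and how CSF3 was supplied or changed in these cells is not stated in the labels. Cells of both groups grew in RPMI-1640 medium with fetal bovine serum and antibiotics, and no time is given. Nothing in the labels tells if the 3 arrays of a group stand for separate cultures, and the spread behind each p-value may therefore be technical.

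Glycolysis splits glucose into pyruvate in the cytosol and yields a little ATP without oxygen. Its early steps spend ATP to phosphorylate the sugar, and its late steps return ATP and NADH. Tumour cells often run it fast even where oxygen is plentiful and turn much of the pyruvate into lactate, which restores the NAD+ the pathway needs. Many of its genes are known targets of the hypoxia-inducible factor HIF-1 and of MYC, and GAPDH is a common reference gene for RNA measurements.

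As deposited, several glycolytic enzymes were lower in the CSF3 group and none was higher by the test used. With a limma adjusted p under 0.05 as the threshold, 0 of the 34 probe sets rose and 17 fell in the CSF3 group, against 36.7% of all single-gene probe sets rising and 28.8% falling. PKM, PGK1, HK2 and GAPDH held the largest falls, ENO1 and PFKP had small ones, and no probe set of GPI, ALDOA, TPI1 or LDHA was called. At an unadjusted p under 0.05, 1 probe set, of PGK1, was higher. The median change of the 34 probe sets was -0.13 on the log2 scale, against 0.10 for all single-gene probe sets. The glycolytic genes are bright: 28 of their 34 probe sets lie among the brightest 10% of all, where 49.6% of probe sets fell, 20.8% rose and the median change was -0.15. Among these 28 probe sets 14 fell, a share near that background. The absence of rises depends on the scaling, since 9 of the 34 rose and 12 fell after quantile normalization of the deposited values, where 28.5% of all probe sets rose and 24.8% fell. After cyclic loess normalization 5 rose and 12 fell, against 26.0% and 27.1% of all. All CSF3 values lay below all Ctrl values in 20 of the 34 probe sets and above them in 5, while over all single-gene probe sets the groups were apart in 70.8%, with CSF3 below in 31.0% and above in 39.8%. A fall of at least 1 log2 unit was reached by 2 of the 34, both of PKM, against a change of that size in either direction in 4.96% of all.

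The arrays themselves differed between the groups. Pearson's r across probe sets was 0.994 between CSF3 arrays, 0.998 between Ctrl arrays and 0.970 to 0.974 between CSF3 and Ctrl arrays. The lower quartile of the deposited values lay at 2.40 to 2.43 on the CSF3 arrays and at 2.18 to 2.19 on the Ctrl arrays, and the upper quartile at 5.37 to 5.40 and 5.63 in the same order. The 18 hybridisation control probe sets, which read spiked-in transcripts, lay at a median of 8.36 ± 0.05 on the CSF3 arrays and 6.82 ± 0.07 on the Ctrl arrays (SD, n = 3 each), and all 18 were higher. The 24 poly-A control probe sets lay at a median of 5.61 ± 0.03 and 4.09 ± 0.25 in the same order, and all 24 were higher. Scaled to the hybridisation controls, the median change of all probe sets was -1.43, and all 34 glycolytic probe sets fell, as did 99.8% of all. The 17 falls were negative under each scaling run, while the direction of several probe sets that were not called changed. Of the epithelial markers, EPCAM read 3.30 ± 0.10 on the CSF3 arrays and 3.63 ± 0.05 on the Ctrl arrays on its brightest probe set, and CDH1 2.24 ± 0.04 and 2.2 ± 0.09. KRT18 read 7.48 ± 0.06 and 7.26 ± 0.01 in the same order. No detection calls were used, so these values do not show whether the markers are expressed. These 3, with CD68 and PTPRC below, were chosen after their values were seen. Among 10 markers of leukocytes, fibroblasts, endothelium, hepatocytes and muscle 7 rose and 1, CD68, fell, against 44.1% of all genes rising and 26.5% falling by their brightest probe set. After quantile normalization 5 of the 10 rose and 1 fell, against 38.6% and 19.0% of all genes. The log2 of the summed signals of these 10, which CD68 dominates, ran from 9.96 to 10.03 on the CSF3 arrays and from 10.19 to 10.26 on the Ctrl arrays. PTPRC, which marks leukocytes, read 1.66 ± 0.20 and 1.42 ± 0.07 in the same order. The smallest p-values among those that rose were of COL1A2 of fibroblasts and PECAM1 and VWF of endothelium, with changes of 0.95 ± 0.082, 0.75 ± 0.10 and 0.56 ± 0.087 (limma adjusted p = 6.5e-05, 0.000596 and 0.00108). They averaged 3.11, 4.36 and 4.41 on the CSF3 arrays and 2.16, 3.61 and 3.85 on the Ctrl arrays. COL1A2 rose in 2 of its 6 probe sets, PECAM1 in 2 of 2 and VWF in 4 of 5. Whether these genes are expressed here was not tested. Of 9 colon epithelial markers 4 rose and 2 fell, while after quantile normalization 3 rose and 3 fell. KRT8 had the smallest p, at 5.06 ± 0.17 on the CSF3 arrays and 6.37 ± 0.05 on the Ctrl arrays (-1.32 ± 0.090, limma adjusted p = 2.6e-05). CDH17 and CDX2 rose by 1.05 and 0.34. What part these differences had in the changes below was not tested.

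**Figure D1:**
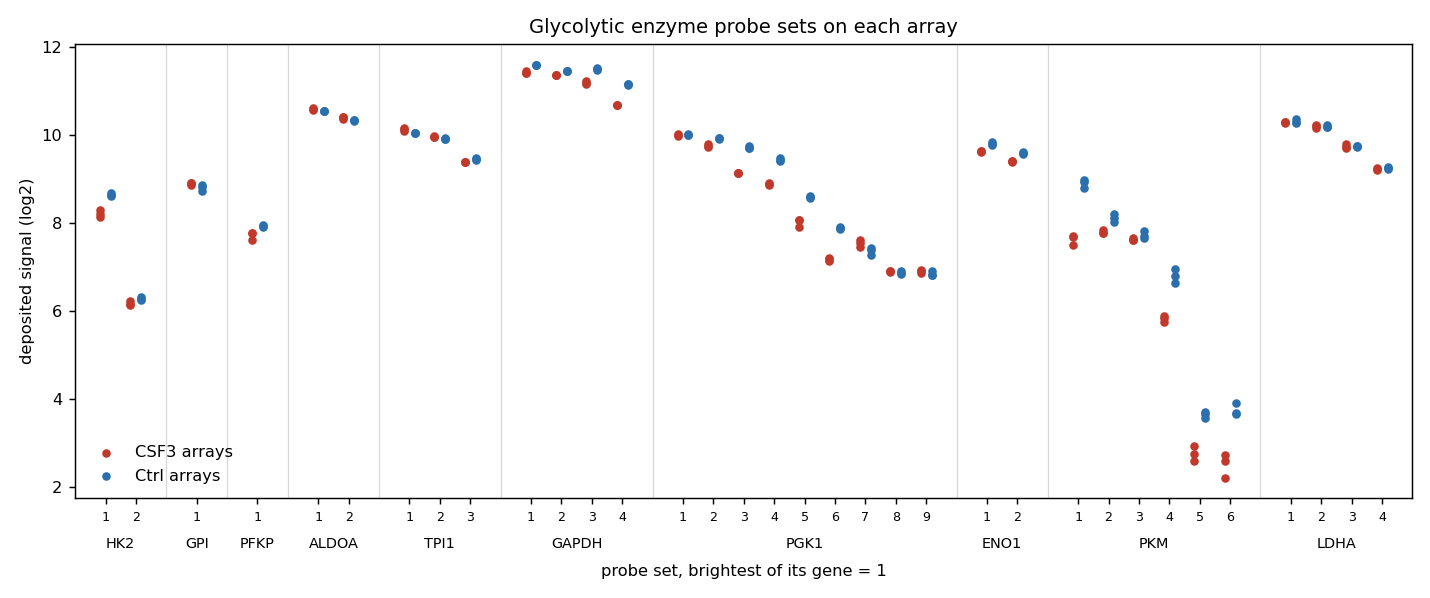
Deposited log2 signal of the 34 glycolytic probe sets (x axis, grouped by gene and numbered from the brightest) on each array, with the 3 CSF3 arrays in red to the left of the 3 Ctrl arrays in blue. The CSF3 points lie well below the Ctrl points in 4 of the 6 PKM probe sets and in 4 of the 9 PGK1 probe sets, while those of LDHA overlap.

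Hexokinases commit glucose to the cell by phosphorylating it, and HK2 is the isozyme bound to mitochondria in many tumours. The brighter HK2 probe set read 8.29, 8.12 and 8.20 on the CSF3 arrays, against 8.64, 8.61 and 8.68 on the Ctrl arrays. All CSF3 values lay below all Ctrl values, and HK2 was 1.36-fold lower on this probe set (log2 change -0.44 ± 0.064 SE, limma adjusted p = 0.000778). The dimmer probe set read 6.13 to 6.23 on the CSF3 arrays and 6.26 to 6.31 on the Ctrl arrays. Its change of -0.10 ± 0.057 was not called (limma adjusted p = 0.150), and it turned to 0.16 after quantile normalization (limma adjusted p = 0.0345). After quantile normalization the pair thus moved in opposite directions, with -0.28 for the brighter one (limma adjusted p = 0.00498).

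GPI converts glucose 6-phosphate into fructose 6-phosphate, and PFKP is a platelet-type subunit of phosphofructokinase, the step at which the pathway is chiefly regulated. GPI read 8.86, 8.91 and 8.91 on the CSF3 arrays, against 8.81, 8.86 and 8.72 on the Ctrl arrays. These groups overlap, and the change of 0.10 ± 0.061 was not called (limma adjusted p = 0.191, 95% interval -0.05 to 0.24). PFKP read 7.77, 7.76 and 7.60 on the CSF3 arrays, against 7.94, 7.96 and 7.90 on the Ctrl arrays. It fell by 0.22 ± 0.067, with no overlap (limma adjusted p = 0.0208), but the change was -0.041 after quantile normalization and -0.020 after cyclic loess normalization (limma adjusted p = 0.614 and 0.816). GPI was called higher after either of these (0.22, limma adjusted p = 0.0232, and 0.25, limma adjusted p = 0.0111).

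ALDOA cleaves fructose 1,6-bisphosphate into 2 three-carbon sugars, and TPI1 interconverts them. The brighter ALDOA probe set read 10.55, 10.60 and 10.58 on the CSF3 arrays, against 10.54, 10.53 and 10.54 on the Ctrl arrays. The other one read 10.35 to 10.40 on the CSF3 arrays and 10.32 to 10.34 on the Ctrl arrays, and the changes of 0.041 ± 0.053 and 0.049 ± 0.054 were not called (limma adjusted p = 0.510 and 0.441). The brightest TPI1 probe set read 10.12, 10.15 and 10.09 on the CSF3 arrays, against 10.04, 10.03 and 10.03 on the Ctrl arrays. CSF3 values lay above Ctrl values in both ALDOA probe sets and in the 2 brighter ones of TPI1, and below them in the dimmest of TPI1, yet all 5 differences were under 0.1 and none was called. After quantile normalization both ALDOA probe sets and the 2 brighter TPI1 probe sets were called higher, with changes from 0.16 to 0.18. After cyclic loess normalization only the brightest of TPI1 was (0.17, limma adjusted p = 0.0276), and the other 3 were not (limma adjusted p = 0.0532 to 0.158).

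GAPDH oxidises glyceraldehyde 3-phosphate and yields the NADH of the pathway. It has 1 ordinary probe set and 3 that the array maker provides as controls at the 3' end, the middle and the 5' end of its transcript. The 5' probe set read 10.67, 10.68 and 10.67 on the CSF3 arrays, against 11.14, 11.13 and 11.14 on the Ctrl arrays. The middle probe set read 11.21, 11.16 and 11.18 on the CSF3 arrays, against 11.47, 11.51 and 11.49 on the Ctrl arrays. The 3' probe set read 11.36, 11.36 and 11.35 on the CSF3 arrays, against 11.44, 11.45 and 11.44 on the Ctrl arrays. The fall was thus deepest at the 5' end, at 0.46 ± 0.052 (limma adjusted p = 0.000223), smaller in the middle (-0.31 ± 0.053, limma adjusted p = 0.00180) and not called at the 3' end (-0.088 ± 0.052, limma adjusted p = 0.168). The ordinary probe set read 11.40, 11.41 and 11.45 on the CSF3 arrays and 11.59 on each Ctrl array, a change of -0.17 ± 0.053 (limma adjusted p = 0.0225).

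The 3' signal of GAPDH exceeded its 5' signal by 0.682 ± 0.003 on the CSF3 arrays and 0.306 ± 0.007 on the Ctrl arrays (log2, SD, n = 3 each). That of ACTB, the other gene with such controls, was 1.94 ± 0.02 and 1.34 ± 0.03 in the same order. A two-sided exact permutation test gave p = 0.1 for either gap, which is as low as 3 against 3 arrays can go. A wider gap is a common sign of shorter RNA or of labelling that stops earlier, and its part in the falls of the other genes was not tested. The annotation used here does not place the other probe sets along their transcripts, so whether the position of a probe set moved with its change was not tested for the other genes.

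**Figure D2:**
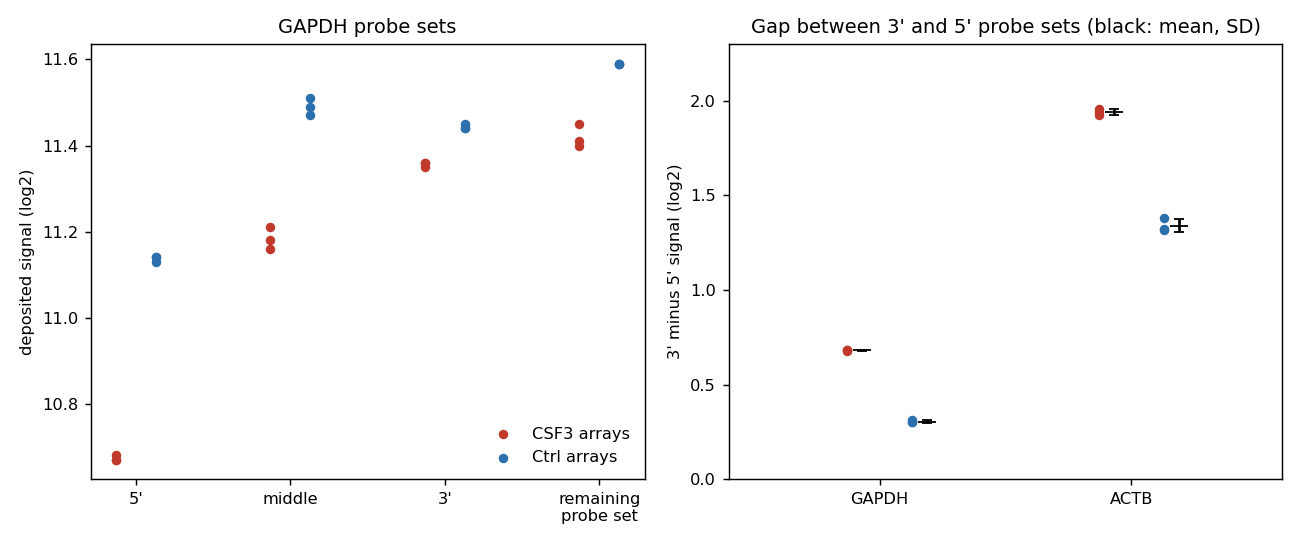
Left, deposited log2 signal of the 4 GAPDH probe sets on each array. Right, the 3' minus 5' gap in log2 for GAPDH and ACTB, with points for arrays and black marks for the mean and SD, CSF3 arrays (red) left of Ctrl arrays (blue). The GAPDH gap is 0.682 on CSF3 arrays and 0.306 on Ctrl arrays.

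PGK1 makes the first ATP that the pathway returns, from 1,3-bisphosphoglycerate. Its 9 probe sets did not move alike: 5 fell, and 4 were not called. The third brightest probe set read 9.12, 9.13 and 9.12 on the CSF3 arrays, against 9.71, 9.71 and 9.73 on the Ctrl arrays. PGK1 was 1.5-fold lower on it (-0.59 ± 0.053, limma adjusted p = 7.76e-05). The sixth brightest read 7.21, 7.17 and 7.13 on the CSF3 arrays, against 7.85, 7.92 and 7.87 on the Ctrl arrays, which is 1.63-fold lower (-0.71 ± 0.056, limma adjusted p = 4.83e-05). The 2 probe sets between these in brightness fell, with changes of -0.56 ± 0.055 and -0.58 ± 0.064, and in all 4 the groups were far apart against an SD of at most 0.084. After quantile normalization these 4 still fell, with changes of -0.51 to -0.41. The annotation ties the fifth and the sixth brightest to the same sequence, so their falls may not be independent.

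The remaining PGK1 probe sets changed by less than 0.2 in either direction. The brightest read 10.02, 9.99 and 9.98 on the CSF3 arrays, against 10.01, 9.99 and 9.99 on the Ctrl arrays, a change of -0.0012 ± 0.053 (limma adjusted p = 0.986, 95% interval -0.13 to 0.12). The second brightest was at 9.71 to 9.78 on the CSF3 arrays and at 9.91 to 9.93 on the Ctrl arrays a change of -0.18 ± 0.054 (limma adjusted p = 0.0230). It was not called after quantile and cyclic loess normalization (limma adjusted p = 0.30 and 0.297), nor on leaving out CSF3 replicate 3 (-0.16, limma adjusted p = 0.0513), Ctrl replicate 1 (-0.17, limma adjusted p = 0.0711), Ctrl replicate 2 (-0.18, limma adjusted p = 0.0616) or Ctrl replicate 3 (-0.17, limma adjusted p = 0.0711). The seventh read 7.53, 7.45 and 7.61 on the CSF3 arrays, against 7.28, 7.37 and 7.43 on the Ctrl arrays. Its change of 0.17 ± 0.071 was not called (limma adjusted p = 0.0648), and without CSF3 replicate 2 it was (0.21, limma adjusted p = 0.0383). The 2 dimmest changed by 0.029 ± 0.055 and 0.057 ± 0.058, and with the seventh they were called higher after quantile normalization, at 0.27 to 0.38. The seventh and the eighth are the 2 probe sets that the annotation ties to the RefSeq transcript of PGK1, and the other 7, which include the 4 deep falls but also the brightest and the ninth, are tied to other sequences.

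The step after PGK1, phosphoglycerate mutase, is carried by PGAM1, which is no member but fills the gap in the pathway and was chosen for mention after its values were seen. PGAM1 read 10.12, 10.11 and 10.08 on the CSF3 arrays, against 10.03, 10.05 and 10.04 on the Ctrl arrays, by the brightest of its probe sets (0.061 ± 0.053, limma adjusted p = 0.334). Of its 4 probe sets 0 rose and 2 fell, with changes from -0.28 to 0.061. After quantile normalization 1 of them rose and 0 fell.

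ENO1, alpha-enolase, makes phosphoenolpyruvate. The brighter probe set read 9.63, 9.64 and 9.62 on the CSF3 arrays, against 9.80, 9.82 and 9.76 on the Ctrl arrays. The dimmer one read 9.39, 9.41 and 9.39 on the CSF3 arrays, against 9.58, 9.60 and 9.57 on the Ctrl arrays. Both lay lower with no overlap, and both fell by a similar amount (-0.16 ± 0.054 and -0.19 ± 0.053, limma adjusted p = 0.0292 and 0.0161). Both calls were lost after quantile normalization, where the changes were -0.064 and -0.094 (limma adjusted p = 0.339 and 0.167). They were also lost without Ctrl replicate 1 (-0.16 and -0.19, limma adjusted p = 0.0837 and 0.0502) and without Ctrl replicate 2 (-0.15 and -0.18, limma adjusted p = 0.0978 and 0.0579). That of the brighter probe set was lost without CSF3 replicate 3 (-0.16, limma adjusted p = 0.0564) and without Ctrl replicate 3 (-0.18, limma adjusted p = 0.0576) as well. Without Ctrl replicate 1 or Ctrl replicate 2 the PFKP call (-0.22 and -0.21, limma adjusted p = 0.0620 and 0.0696) was lost too, and that of the ordinary GAPDH probe set was lost on leaving out Ctrl replicate 1, Ctrl replicate 2 or Ctrl replicate 3 (each -0.17, limma adjusted p = 0.0676, 0.0646 and 0.0692).

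PKM, pyruvate kinase, makes pyruvate and ATP in the last step of the pathway. Its transcripts carry either of a pair of mutually exclusive exons, which gives the M1 and M2 forms, and M2 prevails in proliferating cells. PKM had the deepest falls of the 10 genes. Its brightest probe set read 7.50, 7.69 and 7.67 on the CSF3 arrays, against 8.79, 8.98 and 8.92 on the Ctrl arrays. Every CSF3 value lay more than 1 log2 unit below every Ctrl value, and PKM was 2.42-fold lower on this probe set (-1.27 ± 0.079, limma adjusted p = 1.89e-05). The fourth brightest read 5.84, 5.88 and 5.76 on the CSF3 arrays, against 6.62, 6.95 and 6.79 on the Ctrl arrays, 1.94-fold lower (-0.96 ± 0.090, limma adjusted p = 9.47e-05).

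The 2 dimmest PKM probe sets fell about as far. They read 2.94, 2.75 and 2.58, and 2.59, 2.72 and 2.22, on the CSF3 arrays, against 3.65, 3.70 and 3.57, and 3.67, 3.90 and 3.65, on the Ctrl arrays. Their changes were -0.88 ± 0.096 and -1.23 ± 0.14 (limma adjusted p = 0.000184 and 0.000195), but at this level a signal may lie near background, which was not tested. After quantile normalization the 4 deep falls of PKM ran from -1.34 to -0.70. The annotation ties the brightest and the fourth brightest PKM probe sets to the same sequence, so their falls may not be independent. The second brightest probe set fell less. It read 7.78, 7.78 and 7.83 on the CSF3 arrays, against 8.02, 8.21 and 8.10 on the Ctrl arrays, a change of -0.31 ± 0.067 (limma adjusted p = 0.00483) that was not called after quantile normalization (-0.14, limma adjusted p = 0.123). The third brightest, the only PKM probe set tied to a RefSeq transcript, read 7.61, 7.61 and 7.66 on the CSF3 arrays, against 7.66, 7.82 and 7.69 on the Ctrl arrays. Its change of -0.097 ± 0.065 was not called (limma adjusted p = 0.212), and it turned to 0.098 after quantile normalization. Which exons each probe set reads is not given in the annotation used here, so no form of PKM can be assigned to a probe set.

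LDHA turns pyruvate into lactate and restores NAD+. The brightest probe set read 10.28, 10.27 and 10.28 on the CSF3 arrays, against 10.27, 10.36 and 10.28 on the Ctrl arrays. In all 4 probe sets the groups overlapped, and the changes ran from -0.025 to 0.0019. None was called (limma adjusted p from 0.701 to 0.978), with 95% intervals that reach from -0.16 to 0.13 over the 4. As deposited, a fall or a rise of LDHA beyond these bounds lies outside every interval, and after quantile normalization the 4 changes were 0.070 to 0.10, none of them called.

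**Figure D3:**
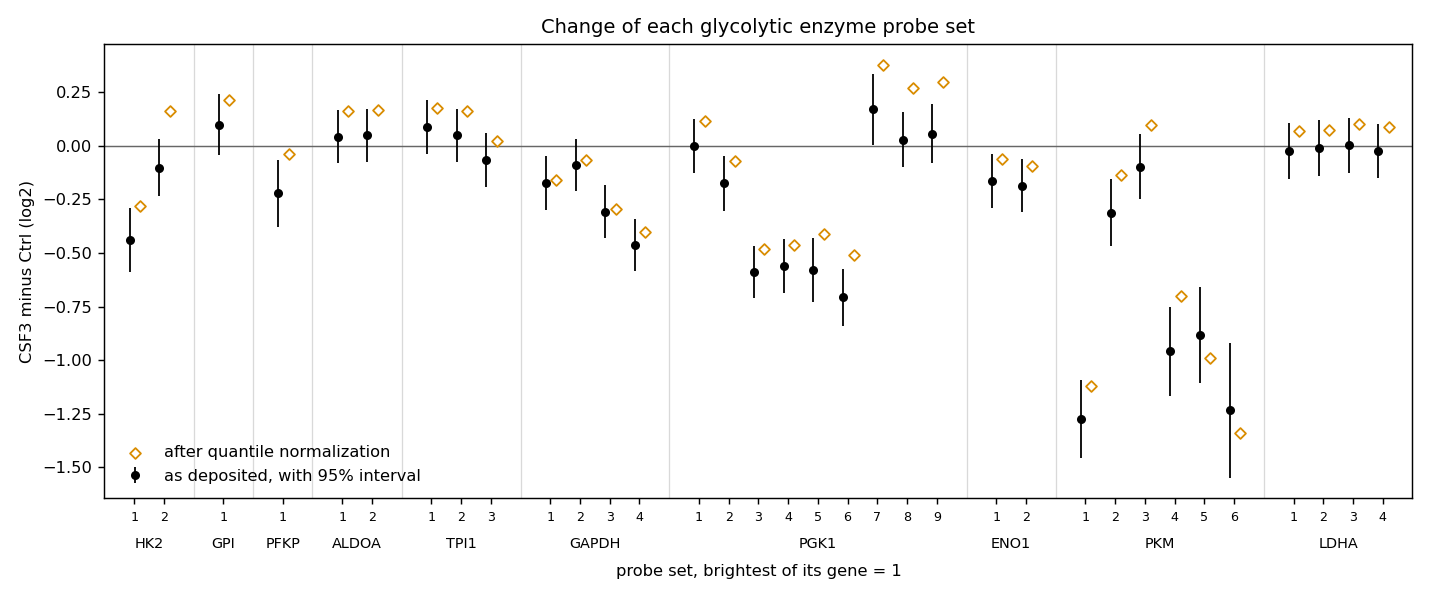
CSF3 minus Ctrl on the log2 scale for each of the 34 probe sets (x axis, grouped by gene and numbered from the brightest). Black points with bars are the values as deposited with their 95% intervals, and open diamonds are the values after quantile normalization. PKM reaches -1.27 as deposited, the LDHA points lie within 0.026 of 0, and 7 probe sets with a negative change as deposited, of HK2, TPI1, PGK1, PKM and LDHA, have a positive one after quantile normalization.

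Because a shift common to all probe sets of a gene cancels in a comparison within the gene, each probe set was also set against the mean of the other probe sets of its gene on the same array. Of the 32 probe sets in the 8 genes that have several, 16 differed at a limma adjusted p under 0.05, against 38.3% of all such probe sets. They belong to HK2, GAPDH, PGK1 and PKM, and in ALDOA, TPI1, ENO1 and LDHA no probe set differed from the others. In PGK1 8 of the 9 differed, 4 of them below and 4 above the rest, from -0.50 ± 0.066 to 0.49 ± 0.083 (limma adjusted p = 0.00113 and 0.00335). In PKM 4 of the 6 differed, and the probe set tied to a RefSeq transcript stood 0.84 ± 0.078 above the others (limma adjusted p = 0.000287), while the brightest stood lower than the others by 0.58 ± 0.094 (limma adjusted p = 0.00275). The pair of HK2 probe sets differed by 0.34 ± 0.070 (limma adjusted p = 0.00771), which counts for both of them. In GAPDH the 5' probe set lay below the others (-0.27 ± 0.063, limma adjusted p = 0.0116) and the 3' probe set above them (0.23 ± 0.063, limma adjusted p = 0.0245). The call of the 3' probe set was lost with any 1 Ctrl array left out, with limma adjusted p from 0.0784 to 0.0844.

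Disagreement of this size was common on these arrays. The spread between the lowest and the highest change was 1.18 in PKM and 0.88 in PGK1, which exceeded 78.6% of the 499 genes with 6 probe sets and 42.4% of the 85 genes with 9. It was 0.027 in LDHA, smaller than in any other of the 1783 genes with 4 probe sets, and 0.0075 in ALDOA, smaller than in all but 2.32% of the 4739 genes with 2. These placements are descriptions of the arrays and carry no test. The F test of limma's diffSplice, which asks whether the probe sets of a gene move alike, was passed by HK2, GAPDH, PGK1 and PKM of the 8 genes, against 54.2% of all genes with several probe sets (adjusted p = 0.00456 for HK2, 5.16e-05 for GAPDH, 6.28e-18 for PGK1 and 4.21e-08 for PKM). Most glycolytic probe sets, 19 of 34, have names ending in _x_at, which marks probes that also match other sequences. Another 4 end in _s_at, which marks probes shared between transcripts. They are the brightest of PKM, PGK1 and LDHA and that of GPI. RefSeq lists 89 pseudogenes under the names of these genes, 65 of them of GAPDH. Signals of these probe sets may include RNA from such copies, which was not tested. With all probe sets of a gene averaged, 47.3% of all 18132 genes rose and 28.2% fell, and 0 of the 10 rose and 6 fell. PKM fell by 0.79 ± 0.062 (limma adjusted p = 3.55e-05), HK2 by 0.27, PGK1 by 0.26, GAPDH by 0.26, PFKP by 0.22 and ENO1 by 0.18. The GAPDH mean includes its 3 array controls, while its ordinary probe set changed by -0.17. Without these controls 0 of 31 member probe sets rose and 15 fell, against 36.7% and 28.8% of all single-gene probe sets. Their median change was -0.10, or 0.022 after quantile normalization, where that of all 34 was -0.052.

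**Figure D4:**
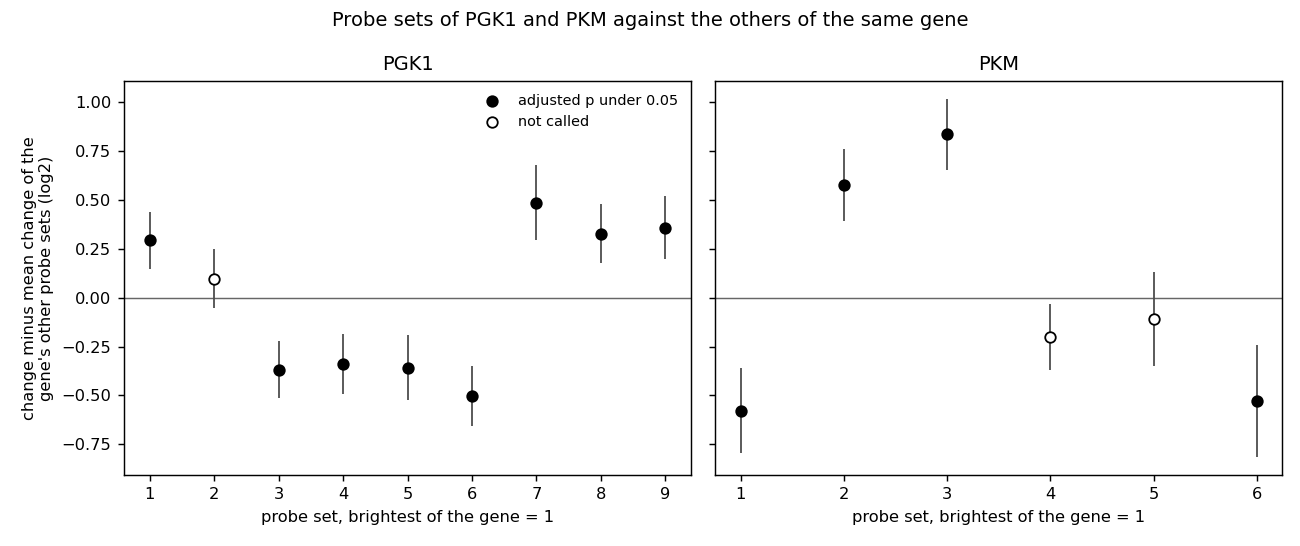
For PGK1 (left) and PKM (right), the change of each probe set minus the mean change of the other probe sets of the gene, in log2, with 95% intervals. Filled points passed the test. PGK1 has 4 filled points below and 4 above 0, and PKM has 2 below and 2 above.

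The 250 bases before the annotated start of LDHA, PGK1 and PKM are shown because LDHA had no call while PGK1 and PKM held the largest falls. HIF-1 is known to bind the core ACGTG and MYC the palindrome CACGTG, which contains that core on both strands. Capitals mark ACGTG and its reverse complement CACGT. The sequences are from RefSeq on GRCh38.p14 and run 5' to 3' on the strand of the gene, at chr11:18394313-18394562 (plus strand) for the first of 2 LDHA starts, at chrX:78103998-78104247 (plus strand) for PGK1 and at chr15:72231191-72231440 (minus strand) for PKM.
LDHA: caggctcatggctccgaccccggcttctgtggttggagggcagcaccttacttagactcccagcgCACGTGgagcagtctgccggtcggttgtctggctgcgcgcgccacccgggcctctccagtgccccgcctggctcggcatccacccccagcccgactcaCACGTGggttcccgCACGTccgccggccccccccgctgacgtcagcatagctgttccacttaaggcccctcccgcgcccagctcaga
PGK1: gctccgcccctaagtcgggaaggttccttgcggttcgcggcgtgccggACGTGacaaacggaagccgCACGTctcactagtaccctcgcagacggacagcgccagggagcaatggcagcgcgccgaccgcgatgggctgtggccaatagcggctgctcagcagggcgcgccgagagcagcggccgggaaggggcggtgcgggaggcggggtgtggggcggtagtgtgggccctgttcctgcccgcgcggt
PKM: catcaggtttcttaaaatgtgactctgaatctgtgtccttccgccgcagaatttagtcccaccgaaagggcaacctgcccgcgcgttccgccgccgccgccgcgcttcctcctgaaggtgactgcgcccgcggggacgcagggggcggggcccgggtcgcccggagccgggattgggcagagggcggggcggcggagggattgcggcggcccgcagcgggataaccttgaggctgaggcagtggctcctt
The LDHA window shown has 3 marked stretches, 2 of which are the full CACGTG, and the window of the other LDHA start has none. The PGK1 window has 2, neither of them a CACGTG, and the PKM window has none. Over all 35116 windows of this length, 18.5% hold ACGTG on either strand and 6.34% hold CACGTG, and of the 18 windows of the 10 genes 11 and 4 do, in the same order. RefSeq gives more than 1 window for some genes. CACGTG also lies in a window of HK2, of GAPDH and of ALDOA, while the ENO1 window holds no ACGTG on either strand. HK2, GAPDH and ENO1 had called falls, and ALDOA had no call. The genes shown were picked by their changes and do not stand for the 10. These matches describe the letters only, and a link to the changes was not tested.

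Genes around the pathway were counted by their brightest probe set, beside 44.1% of all 18132 genes rising and 26.5% falling (70.6% either way), with a median change of 0.16. On the same count 0 of the 10 members rose and 5 fell, with a median of -0.10. After quantile normalization 3 of the 10 members rose and 3 fell, with a median of 0.014. At that scaling 38.6% of all genes rose and 19.0% fell on this count. The counts after quantile normalization below are to be read against these shares. Of 18 other isozymes of the same steps 9 rose and 2 fell, with a median of 0.18. After quantile normalization 7 of them rose and 3 fell, with a median of 0.14. PFKM, the muscle-type phosphofructokinase subunit, averaged 7.10 ± 0.09 on the CSF3 arrays and 8.0 ± 0.03 on the Ctrl arrays (SD, n = 3 each), a change of -0.91 ± 0.066 (limma adjusted p = 3.35e-05). HKDC1, a hexokinase-like enzyme, read 5.58, 5.29 and 5.34 on the CSF3 arrays, against 4.52, 4.38 and 4.29 on the Ctrl arrays (1.01 ± 0.098, limma adjusted p = 0.000111). HK3, a hexokinase of leukocytes, rose by 0.51 ± 0.078 (limma adjusted p = 0.000966). Several isozymes that rose are dim, such as PGK2 of testis at 3.38 ± 0.19 on the CSF3 arrays and 2.71 ± 0.09 on the Ctrl arrays, and dim probe sets mostly read higher in the CSF3 group, with median changes of 0.18 to 0.28 in the 4 dimmest of 10 equal classes of brightness. PGK2 was chosen for mention after its values were seen.

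Among 12 regulators and side enzymes 3 rose and 5 fell, with a median of -0.14, or 0.035 after quantile normalization, where 4 rose and 2 fell. PFKFB2, which makes and removes the phosphofructokinase activator fructose 2,6-bisphosphate, read 4.16, 4.33 and 3.86 on the CSF3 arrays, against 5.40, 5.17 and 5.27 on the Ctrl arrays (-1.17 ± 0.12, limma adjusted p = 0.000164), while of its 6 probe sets 2 rose and only this one fell, over a range of -1.17 to 0.41. PFKFB1, of the same family, rose by 0.56 ± 0.075 (limma adjusted p = 0.000510). MYC, a transcription factor that acts on many glycolytic genes, read 9.06, 9.01 and 9.05 on the CSF3 arrays, against 9.38, 9.44 and 9.35 on the Ctrl arrays (-0.35 ± 0.057, limma adjusted p = 0.00135). HIF1A, the regulated subunit of HIF-1, was chosen for mention after its values were seen. Its brightest probe set changed by -0.17 ± 0.069, which was not called (limma adjusted p = 0.0583). Its other 7 probe sets all fell, with changes of -0.62 to -0.40 (limma adjusted p from 0.000336 to 0.00466), and 5 of these fell after quantile normalization.

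Pyruvate oxidation and the pentose phosphate pathway moved mostly downward. Most of these genes lie in classes 7 to 10 of the 10 equal classes of rising brightness. The median change of all probe sets in these classes was -0.24 to -0.12. Of 10 genes of the pyruvate dehydrogenase complex and its regulators 0 rose and 6 fell, with a median of -0.40, or -0.20 after quantile normalization, where 1 rose and 4 fell. At an unadjusted p under 0.05 as well, 0 of these rose. DLD, the dihydrolipoamide dehydrogenase subunit, read 8.12, 7.98 and 7.96 on the CSF3 arrays, against 8.92, 8.92 and 8.91 on the Ctrl arrays (-0.90 ± 0.064, limma adjusted p = 3.11e-05). PDHB, a subunit of the pyruvate dehydrogenase component, fell by 0.42 ± 0.059, and PDK1, a kinase that inhibits the complex, fell by 0.48 ± 0.070 (limma adjusted p = 0.000630 and 0.000752). Of 8 pentose phosphate genes 1 rose and 6 fell, with a median of -0.54, or -0.35 after quantile normalization, where 0 rose and 5 fell. PGLS, the lactonase of the oxidative branch, read 6.08, 6.04 and 6.10 on the CSF3 arrays, against 6.84, 6.97 and 6.93 on the Ctrl arrays (-0.84 ± 0.061, limma adjusted p = 3.29e-05). TKT, the transketolase gene, fell by 0.53 ± 0.056 (limma adjusted p = 0.000169). H6PD, which acts in the endoplasmic reticulum, gave no single direction: its brightest probe set fell by 0.88 ± 0.071 (limma adjusted p = 4.95e-05), but of its 7 probe sets 4 rose, up to 0.97, and only this one fell.

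Of 5 measured transporters 0 rose and 2 fell by limma, and 1, MPC2, was higher at an unadjusted p under 0.05. MPC1, of the mitochondrial pyruvate carrier, and SLC16A7, a monocarboxylate transporter, fell, with changes of -0.31 ± 0.061 and -0.32 ± 0.084 (limma adjusted p = 0.00333 and 0.0110). MPC2, the partner of MPC1, changed by 0.21 ± 0.082, which was not called (limma adjusted p = 0.0571). MPC2 and SLC16A7 have further probe sets that differ. Their changes ran from -0.37 (called) to 0.21 over the 4 of MPC2 and from -0.32 to 0.19 over the 3 of SLC16A7. SLC2A1 and BSG, also on this list, are described with their values already known. Neither was called on its brightest probe set (0.13 and 0.012). Yet 2 of the 4 probe sets of SLC2A1 and 4 of the 6 of BSG fell, and 0 rose. Changes reached from -0.48 to 0.18 in SLC2A1 and from -0.39 to 0.012 in BSG. After quantile normalization 1 of SLC2A1 rose and 1 fell, while 2 of BSG rose and 0 fell. After quantile normalization 3 transporters rose and 1 fell, and MPC1 was not called (-0.07, limma adjusted p = 0.387). Of 8 gluconeogenic genes 5 rose and 1 fell, with a median of 0.30, or 0.26 after quantile normalization, where 4 rose and 1 fell. PCK2, the mitochondrial phosphoenolpyruvate carboxykinase, fell by 0.55 ± 0.068 (limma adjusted p = 0.000351). G6PC2 and FBP2, which are dim here, rose by 0.56 ± 0.073 and 0.98 ± 0.13 (limma adjusted p = 0.000437 and 0.000550).

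**Figure D5:**
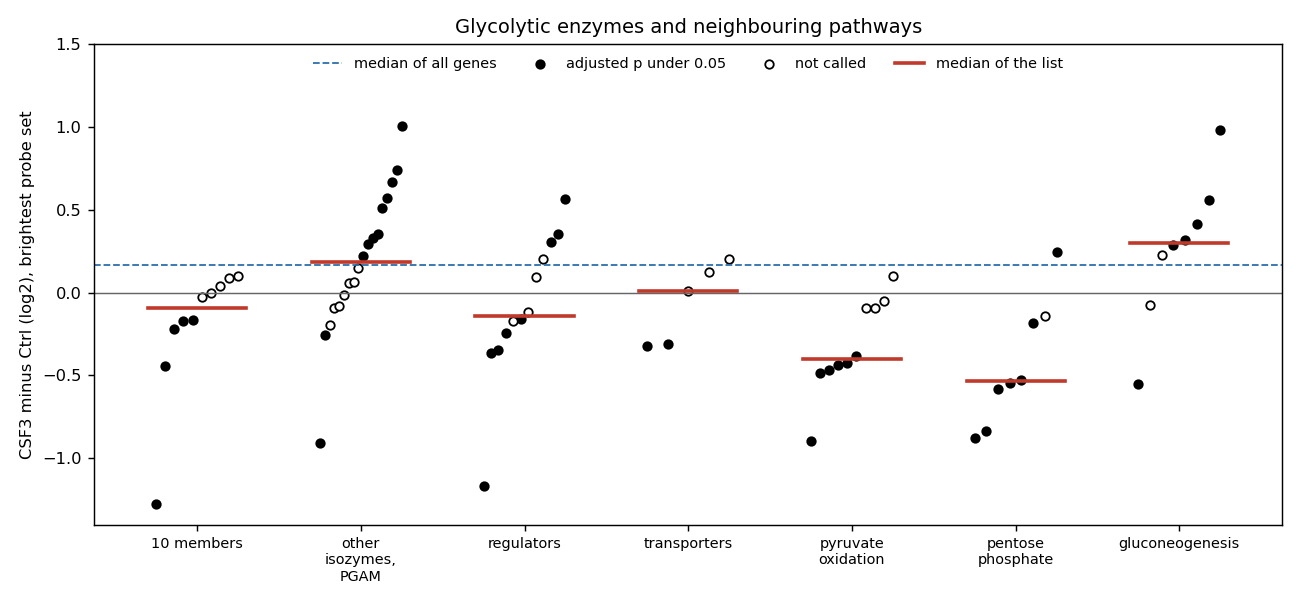
CSF3 minus Ctrl on the log2 scale of the brightest probe set of each gene (y axis), for the 10 glycolytic members and 6 neighbouring lists (x axis). Filled points passed the test, red bars are list medians and the dashed line is the median of all genes, 0.16. The medians of pyruvate oxidation and the pentose phosphate pathway, -0.40 and -0.54, are the lowest of the 7 groups as deposited.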

How the data were processed

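The authors deposited log2 values, as judged from their range alone, for 49395 probe sets on each of 6 arrays. How they corrected background, summarised probes and normalized, and the base of the log, are not stated in the labels or headers. Scanner files and detection calls were not used. With 3 arrays a group, precision is limited by their number. Gene names come from the platform annotation: 44994 probe sets have 1 gene and were tested, 1832 have several and 2473, array controls aside, have none. Of the tested ones, 44967 had an Entrez identifier in RefSeq (GRCh38.p14), which changed 0 symbols.

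CSF3 minus Ctrl was fitted on all 3 and 3 arrays in R 4.3.3 by limma 3.58.1 (lmFit, eBayes), without a filter or covariate. Adjustment by Benjamini and Hochberg's method ran over all 44994 probe sets, with 0.05 as threshold. Changes are given ± their standard error. The same model was fitted to each probe set minus the mean of the other probe sets of its gene, adjusted over 38597 probe sets. Probe sets are numbered by their mean over the 6 arrays, a name only, since levels of different probe sets are not comparable. Folds assume base 2.

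All probe sets of the 10 genes are named, and from each other list the 3 genes with the smallest p. Any further gene is said to have been chosen after its values were seen. Members and lists were chosen with earlier results of these data known. The alternatives were quantile and cyclic loess normalization, subtraction of array medians or of the hybridisation controls, leaving out the 30% dimmest probe sets, the brightest probe set or the mean per gene, array weights, trended and robust eBayes, a block for the replicate number, a change of at least 1, diffSplice, and leaving out each array. In a test on simulated data of the CSF3 and Ctrl arrays, the fit over 44994 probe sets recovered 0%, 36%, 88% and 100% of 50 probe sets given changes of 0.25, 0.5, 1 and 2 and called 1 unchanged probe set. The fit within genes, over 38597 probe sets, recovered 0%, 26%, 94% and 98%. Only 50 probe sets of each size were altered for either fit, whereas 65.5% of all probe sets were called in the deposited data. The adjusted p depends on that share, and recovery at the share of the deposited data was not tested. As deposited, -0.22 in PFKP and -0.16 in the brighter ENO1 probe set were called, and 0.17 in the seventh PGK1 probe set was not.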

Additional observations from a re-analysis of the deposited data

Results flagged for a closer look

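A probe set that ENO1 shares with TMEM11 was outside the comparisons, which used probe sets of 1 gene. It read 5.61, 5.58 and 5.66 on the CSF3 arrays, against 5.39, 5.46 and 5.32 on the Ctrl arrays, so that every CSF3 value lay above every Ctrl value (difference 0.23, not tested). A probe set that ENO1 shares with EDARADD went the other way, with 8.17 ± 0.07 on the CSF3 arrays and 8.40 ± 0.04 on the Ctrl arrays (SD, n = 3 each). Groups that do not overlap were found for 70.8% of all single-gene probe sets.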

How the results depend on the processing

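The 17 falls among the 34 probe sets remained with array medians subtracted, with the dimmest 30% left out, with trend and robust settings and with array weights. Of these calls 12 remained after quantile and 12 after cyclic loess normalization, and 12 to 17 with 1 array left out. The number of probe sets that rose, 0 as deposited, was 9 after quantile normalization, 5 after cyclic loess normalization, 3 with trend and robust settings and 0 to 1 with 1 array left out. The number that fell was 34 with the hybridisation controls subtracted, where 99.8% of all probe sets fell, 5 of 10 with the brightest probe sets alone (27.1% of all genes), 6 of 10 with the mean per gene (28.2%) and 2 at a change of at least 1. The cause was not tested, except that the settings by gene test 10 values.

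Quantile and then cyclic loess normalization turned the dimmer HK2 probe set from -0.10 to 0.16 and 0.13, the dimmest of TPI1 from -0.066 to 0.022 and 0.059, the brightest of PGK1 from -0.0012 to 0.11 and 0.092, the third of PKM from -0.097 to 0.098 and 0.11, and the LDHA probe sets from -0.025 to 0.070 and 0.050, from -0.010 to 0.072 and 0.071, and from -0.024 to 0.085 and 0.11. With hybridisation controls subtracted, the probe sets above 0 turned to -1.44 in GPI, -1.49 and -1.49 in ALDOA, -1.45 and -1.48 in TPI1, -1.36, -1.51 and -1.48 in PGK1 and -1.53 in LDHA. This LDHA probe set, at 0.0019 as deposited, was -0.00275 with array medians subtracted, -8.02e-05 with array weights and -0.023 to 0.0196 with 1 array left out. With 1 array left out, the brightest PGK1 probe set ranged from -0.0132 to 0.00884 and the 2 brighter ones of LDHA from -0.0416 to 0.00226 and from -0.0283 to 0.00774. In the comparison within genes, LDHA probe sets turned from 0.0055 to -0.0136 and -0.019 and from -0.013 to 0.0038 and 0.034 after quantile and cyclic loess normalization, and with 1 array left out 3 of them ranged from -0.0278 to 0.00575, from -0.00163 to 0.0168 and from -0.0266 to 0.00473. The differences between CSF3 and Ctrl arrays were 0.35 and 0.34 for the GAPDH gap, 0.50 and 0.50 for the ACTB gap and 1.73 and 1.75 for the hybridisation controls after these, against 0.38, 0.60 and 1.53 as deposited.

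Same-numbered arrays deviated together only weakly, with r of 0.015 to 0.026, against -0.034 to 0.008 for arrays of other numbers. Small correlations cannot tell whether the numbers pair the arrays. With the replicate number as a block 14 probe sets fell and 0 rose, and in the comparison within genes 7 lay above and 8 below the others.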
